A study of Mus musculus with 12 samples.

Results

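The genes described here are 40 members of the hypoxia response and of glycolysis, read in the RNA of mouse bone marrow-derived macrophages (BMDM) cultured in soft or stiff hydrogels. They were chosen by gene symbol from a list of glycolytic enzymes and known targets of hypoxia-inducible factors, and a member was tested where it reached at least 1 TPM in at least 2 libraries. All 40 members were among the 14098 genes of the deposited table, and 39 of them were among the 11194 genes that passed this filter. The member that did not pass was Adm. TPM (transcripts per 1000000) is a level that is divided by gene length and scaled to the same total in every library.

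RNA was sequenced from 12 libraries, 2 in each of 6 groups, in order to ask how matrix stiffness and the kinase CaMKK2 shape macrophage activation. BMDM came from the femurs and tibiae of wild-type (WT) or Camkk2-/- (KO) C57Bl/6 mice, male and female, aged 8 to 10 weeks, and were grown with L929-conditioned medium on plates of ultra-low attachment. Each genotype was cultured in a soft collagen and hyaluronic acid hydrogel (WT soft, KO soft), in the same soft hydrogel with interleukin 4 (WT soft+IL-4, KO soft+IL-4), or in a hydrogel stiffened by UV crosslinking with the photoinitiator Irgacure 2959 24 h after the cells were encapsulated (WT stiff, KO stiff), and was kept for 48 h more. Cells of every group were freed with collagenase IV (400 U/mL, 1 h) before RNA was extracted, and poly(A) RNA was sequenced. Per the study's methods the stiff hydrogel also held more collagen and received UV light and photoinitiator, which the soft hydrogel did not, so that stiffness, collagen and crosslinking cannot be told apart in these groups. Camkk2 was deleted in the mouse as a whole. The labels give 2 biological replicates per group without saying which animals or cultures they came from, so p-values measure only the spread between these libraries.

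Cells sense oxygen through prolyl hydroxylases, which mark the alpha subunits of hypoxia-inducible factors (HIF) for degradation as long as oxygen is present. When oxygen falls the subunits persist, pair with ARNT and bind short hypoxia response elements near genes of glucose uptake, glycolysis, angiogenesis and mitochondrial turnover. In macrophages HIF-1 is also known to rise with inflammatory stimulation, and glycolysis is used by both inflammatory and IL-4-treated cells.

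Before the results, the libraries themselves need description. The deleted gene went against some of the labels. Camkk2 read 44.2 and 11.7 TPM in WT soft, 30.5 and 29.8 TPM in WT soft+IL-4, 23.3 and 23.7 TPM in WT stiff, 46.6 and 11.5 in KO soft, 11.5 and 8.54 in KO soft+IL-4, and 37.7 and 10.0 TPM in KO stiff (libraries 1 and 2 in turn). The library labelled WT soft 2 was thus at the level of the KO libraries, and those labelled KO soft 1 and KO stiff 1 were at that of the WT libraries. The values are totals per gene and do not show which exons were read. Library names below are the labels, and each result that rests on these 3 libraries is given with that in view. WT stiff 1 also stood apart from the rest. The SD over genes of its log2 difference from another library was 0.673 at the least (against WT stiff 2), while WT stiff 2 and WT soft+IL-4 2 differed by an SD of only 0.187, the smallest of all pairs. The libraries numbered 1 listed 10.7% to 13.4% of genes at 0, whereas those numbered 2 listed 5.90% to 7.54%. Every one of the 8 macrophage markers was present, at a summed 23571 to 57980 TPM that was mostly Lyz2. Neutrophil markers above 1 TPM in at least 2 libraries were 4 of 12, B cell markers 1 of 5, mast cell or basophil markers 1 of 7, and T cell, erythroid and fibroblast markers 0, with no summed level over 3.38 TPM for any of the last 5 lists.

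The sequences below are the RefSeq promoter windows (GRCm38.p6, 250 bases before to 50 after a transcript's start) of 5 members on which the results turn: Egln3, Bnip3 and Ankrd37, which differed most between the WT stiff libraries among the members with roles in oxygen sensing, mitochondria and the other hypoxia targets, and Pgk1 and Pfkp, which changed under test. They lie at chr12:54203825-54204124, minus strand, at chr7:138909457-138909756, minus strand, at chr8:45999801-46000100, minus strand, at chrX:106186850-106187149, plus strand, and at chr13:6648722-6649021, minus strand. Each is printed 5′ to 3′ on the strand of its gene. Capitals mark the core of the hypoxia response element, ACGTG or GCGTG, read on either strand (CACGT or CACGC on the other), which overlaps the E-box CACGTG.
Egln3: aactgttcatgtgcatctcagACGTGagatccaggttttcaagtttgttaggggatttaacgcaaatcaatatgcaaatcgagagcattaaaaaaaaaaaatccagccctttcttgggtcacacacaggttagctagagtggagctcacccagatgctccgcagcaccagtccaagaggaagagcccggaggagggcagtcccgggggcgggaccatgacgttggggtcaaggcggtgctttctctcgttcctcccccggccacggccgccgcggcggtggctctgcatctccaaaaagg
Bnip3: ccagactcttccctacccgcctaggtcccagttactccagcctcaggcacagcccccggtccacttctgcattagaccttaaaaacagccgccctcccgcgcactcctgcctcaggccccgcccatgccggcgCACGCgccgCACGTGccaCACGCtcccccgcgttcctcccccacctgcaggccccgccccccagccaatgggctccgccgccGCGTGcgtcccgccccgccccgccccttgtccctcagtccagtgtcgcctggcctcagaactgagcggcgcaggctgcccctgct
Ankrd37: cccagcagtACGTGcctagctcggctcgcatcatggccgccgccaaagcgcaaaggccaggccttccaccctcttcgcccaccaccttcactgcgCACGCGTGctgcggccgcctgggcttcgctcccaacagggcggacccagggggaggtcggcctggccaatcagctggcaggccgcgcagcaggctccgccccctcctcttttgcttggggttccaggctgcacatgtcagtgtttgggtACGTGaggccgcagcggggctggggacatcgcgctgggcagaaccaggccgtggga
Pgk1: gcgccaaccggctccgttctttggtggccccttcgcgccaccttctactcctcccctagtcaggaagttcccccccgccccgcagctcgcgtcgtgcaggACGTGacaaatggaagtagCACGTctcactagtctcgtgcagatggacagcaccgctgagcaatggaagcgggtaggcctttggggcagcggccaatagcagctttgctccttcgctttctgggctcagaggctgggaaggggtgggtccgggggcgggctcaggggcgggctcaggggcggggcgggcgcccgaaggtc
Pfkp: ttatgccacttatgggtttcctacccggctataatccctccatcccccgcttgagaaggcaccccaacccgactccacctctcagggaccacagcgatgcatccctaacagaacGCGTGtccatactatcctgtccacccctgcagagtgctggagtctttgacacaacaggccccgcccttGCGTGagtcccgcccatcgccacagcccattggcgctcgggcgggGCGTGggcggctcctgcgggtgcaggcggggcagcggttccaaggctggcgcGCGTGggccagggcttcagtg

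Of the 40 members, 37 had an entry among the RefSeq windows (Bnip3l, Ero1l and Ndrg1 had none), with 56 windows in all. The core stood in 44 of these 56 windows (78.6%) and in 43.8% of the 32851 windows of all genes. The members' windows were also richer in G and C, with a median of 62.2% against 52.7%. Among the 7456 windows within 5 percentage points of the members' median, 63.2% held the core. At least 2 cores stood in 55.4% of the members' windows, in 20.6% of all windows and in 34.3% of those of like base content. Cores were counted on each strand, so that 1 CACGTG counted as 2 cores. The E-box CACGTG stood in 10.7% of the members' windows, in 7.15% of all and in 10.4% of those of like base content. Of the 5 windows printed, Egln3 held 1 core, Pgk1 held 2, Ankrd37 and Pfkp held 4 each, and Bnip3 held 5, 2 of them within 1 CACGTG. These matches describe letters and do not show binding.

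In the stiff matrix the WT libraries did not resemble each other. Most members were higher in WT stiff 1 than in any other library, whereas WT stiff 2 read like the libraries with IL-4. Since this contrast is named in the rule that defines the set, it is described here without a test. WT stiff 1 was above each of the other 11 libraries for 37 of the 39 tested members (31.7% of all tested genes were) and below them for 1 member, Eno2 (17.4% of all genes). Car9 lay inside the range of the others. WT stiff 1 exceeded WT stiff 2 by at least 1 log2 unit for 27 of 39 members, against 7.06% of all genes. The median member differed between the WT stiff libraries by 1.48 on the log2(TPM + 1) scale (all genes, 0.13). The same median was −0.014 in WT soft, 0.08 in WT soft+IL-4, −0.0029 in KO soft, 0.07 in KO soft+IL-4 and 0.11 in KO stiff. No other group separated its libraries in this way. WT stiff 2 lay within the range of the 4 libraries with IL-4 for 36 of 39 members (73.4% of all genes) and within that of the 4 soft libraries for 9 of 39 (39.0% of all genes). In bulk RNA, a change of RNA per cell and a change in which cells are present cannot be told apart.

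**Figure D1:**
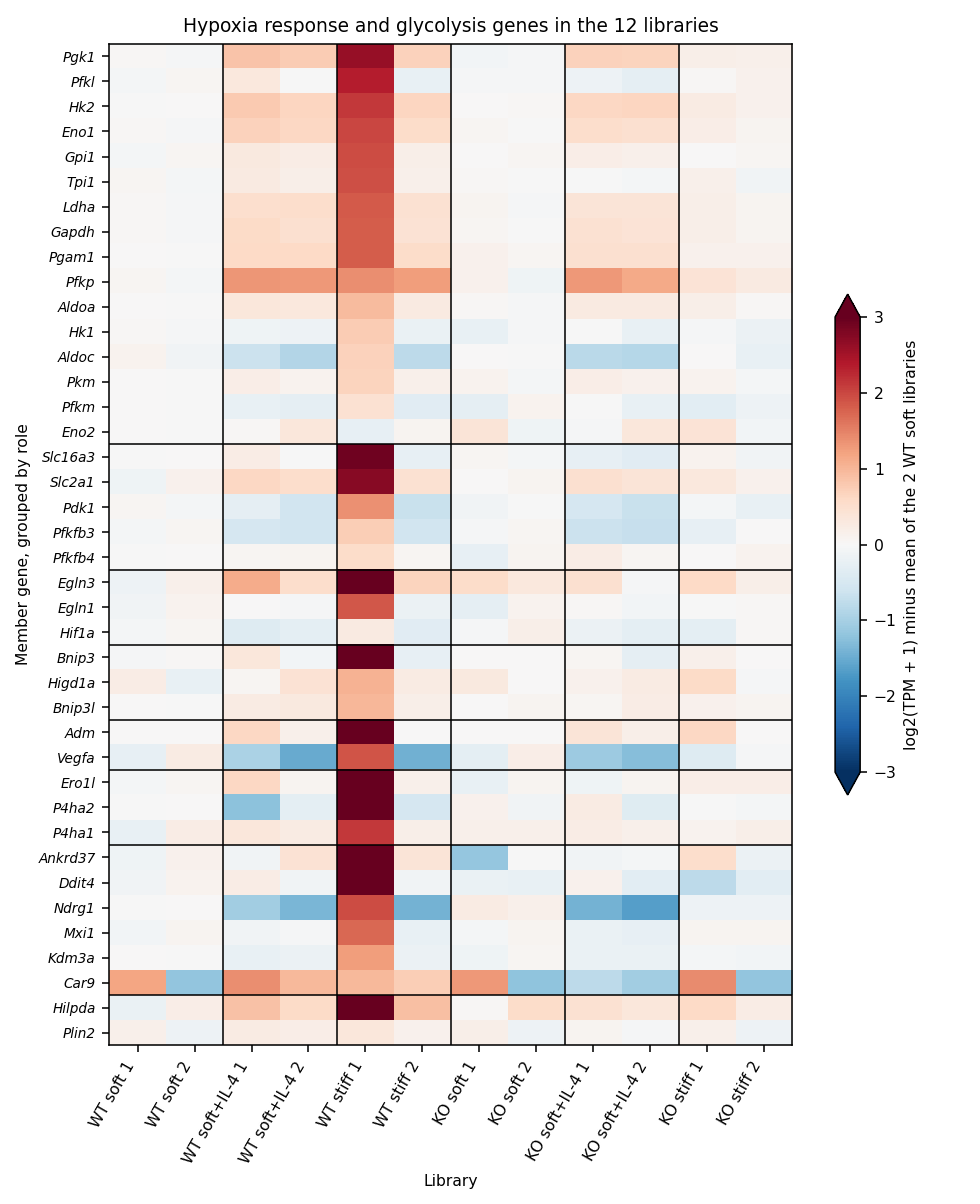
Each row is 1 of the 40 members, grouped by role and ordered by its value in WT stiff 1, and each column is 1 library. Colour gives log2(TPM + 1) minus the mean of the 2 WT soft libraries, with colours saturating beyond 3 units, and the column of WT stiff 1 is the darkest for most members.

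The single member with the widest difference was an oxygen sensor. Egln3, a prolyl hydroxylase that is itself a HIF target, read 0.270 and 0.589 TPM in WT soft, 2.06 and 1.05 in WT soft+IL-4, 75.7 and 1.27 in WT stiff, 1.08 and 0.782 in KO soft, 0.995 and 0.392 in KO soft+IL-4, and 1.16 and 0.599 in KO stiff. It was near the filter's limit everywhere but in WT stiff 1, which was 36.8-fold above the next highest library. Egln1, the main prolyl hydroxylase of most tissues, read 88.5 TPM in WT stiff 1 and 19.5 to 25.5 TPM in the other 11 libraries. Hif1a, the gene of the oxygen-regulated subunit itself, differed far less, with 30.3 TPM in WT stiff 1 and 19.0 to 28.4 TPM elsewhere.

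The mitochondrial members split in the same manner. Bnip3, which marks mitochondria for removal, read 20.1 and 21.4 TPM in WT soft, 26.6 and 19.4 in WT soft+IL-4, 357 and 17.4 in WT stiff, 20.9 and 20.7 in KO soft, 21.7 and 17.0 in KO soft+IL-4, and 23.3 and 21.0 in KO stiff. WT stiff 1 was 13.4-fold above the highest of the others, and WT stiff 2 was among the lowest. Its relative Bnip3l read 151 TPM in WT stiff 1 and 74.7 to 93.4 TPM elsewhere. Higd1a, a small protein of the inner mitochondrial membrane, read 39.2 TPM against 15.8 to 28.4 TPM.

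Secreted factors of blood vessel growth and tone followed. Vegfa, the main growth factor of blood vessels, read 46.5 and 65.99 TPM in WT soft, 28.0 and 18.6 in WT soft+IL-4, 207 and 19.9 in WT stiff, 45.0 and 63.3 in KO soft, 25.5 and 22.2 in KO soft+IL-4, and 42.0 and 54.0 in KO stiff. The WT stiff libraries thus held its highest and nearly its lowest value. Adm, the vasodilator adrenomedullin, read 14.7 TPM in WT stiff 1. It was listed at 0 in WT stiff 2 and KO stiff 2 and in all 4 soft libraries, and read 0.549 and 0.104 TPM in WT soft+IL-4, 0.298 and 0.131 in KO soft+IL-4, and 0.526 in KO stiff 1, so that it did not pass the filter and entered no test.

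Enzymes of collagen hydroxylation and protein folding had the largest median difference of any role, 4.08 log2 units between the WT stiff libraries. Ero1l, an oxidase of the endoplasmic reticulum that forms disulfide bonds, read 14.1 and 15.2 TPM in WT soft, 23.0 and 15.7 in WT soft+IL-4, 316 and 16.4 in WT stiff, 12.5 and 15.5 in KO soft, 13.3 and 15.7 in KO soft+IL-4, and 16.9 and 16.9 in KO stiff. P4ha2, a subunit of collagen prolyl 4-hydroxylase, read 1.34 and 1.37 TPM in WT soft, 0 and 0.916 in WT soft+IL-4, 27.0 and 0.655 in WT stiff, 1.59 and 1.20 in KO soft, 1.81 and 0.830 in KO soft+IL-4, and 1.35 and 1.26 in KO stiff. Both were high in WT stiff 1 alone. The related subunit P4ha1 read 121 TPM there and 23.1 to 34.4 TPM elsewhere.

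Of the remaining hypoxia targets, Ankrd37, an ankyrin repeat protein, read 9.62 and 11.8 TPM in WT soft, 9.86 and 14.7 in WT soft+IL-4, 198 and 14.3 in WT stiff, 4.23 and 10.7 in KO soft, 9.77 and 10.1 in KO soft+IL-4, and 15.7 and 9.25 in KO stiff. Ddit4, an inhibitor of mTORC1 signalling, read 1.32 and 1.72 TPM in WT soft, 1.94 and 1.34 in WT soft+IL-4, 27.4 and 1.32 in WT stiff, 1.19 and 1.16 in KO soft, 1.75 and 1.03 in KO soft+IL-4, and 0.465 and 1.02 in KO stiff. Hilpda, an inhibitor of lipolysis on lipid droplets, read 6.09 and 8.42 TPM in WT soft, 14.1 and 11.1 in WT soft+IL-4, 177 and 14.2 in WT stiff, 7.38 and 11.02 in KO soft, 10.2 and 9.38 in KO soft+IL-4, and 11.3 and 8.57 in KO stiff. Each of these 3 genes was over 12-fold higher in WT stiff 1 than in the next library (12.6-, 14.1- and 12.5-fold). Ndrg1, a stress-responsive gene of the cytoplasm, read 46.9 and 47.4 TPM in WT soft, 22.4 and 17.6 in WT soft+IL-4, 187 and 16.9 in WT stiff, 56.5 and 52.1 in KO soft, 17.0 and 14.4 in KO soft+IL-4, and 42.3 and 42.3 in KO stiff. Like Vegfa, it was high in WT stiff 1 and otherwise lowest in WT stiff 2 and with IL-4. Mxi1, an antagonist of Myc, read 44.6 TPM in WT stiff 1 and 10.5 to 13.7 TPM elsewhere, and the histone demethylase Kdm3a read 40.8 TPM against 14.01 to 17.3 TPM. Plin2, a coat protein of lipid droplets, moved little, from 658 to 873 TPM in 11 libraries to 929 TPM in WT stiff 1.

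Car9, a membrane carbonic anhydrase often used as a hypoxia marker, was an exception to the pattern. It read 4.48 and 0.0495 TPM in WT soft, 5.28 and 3.74 in WT soft+IL-4, 3.68 and 3.02 in WT stiff, 4.92 and 0.0347 in KO soft, 0.391 and 0.172 in KO soft+IL-4, and 5.46 and 0.0535 in KO stiff. The libraries at 3.02 TPM or more were those with Camkk2 at 23.3 TPM or more, and the libraries at 0.391 TPM or less were those with Camkk2 at 11.7 TPM or less, whatever the label. This was noticed after the values were seen.

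**Figure D2:**
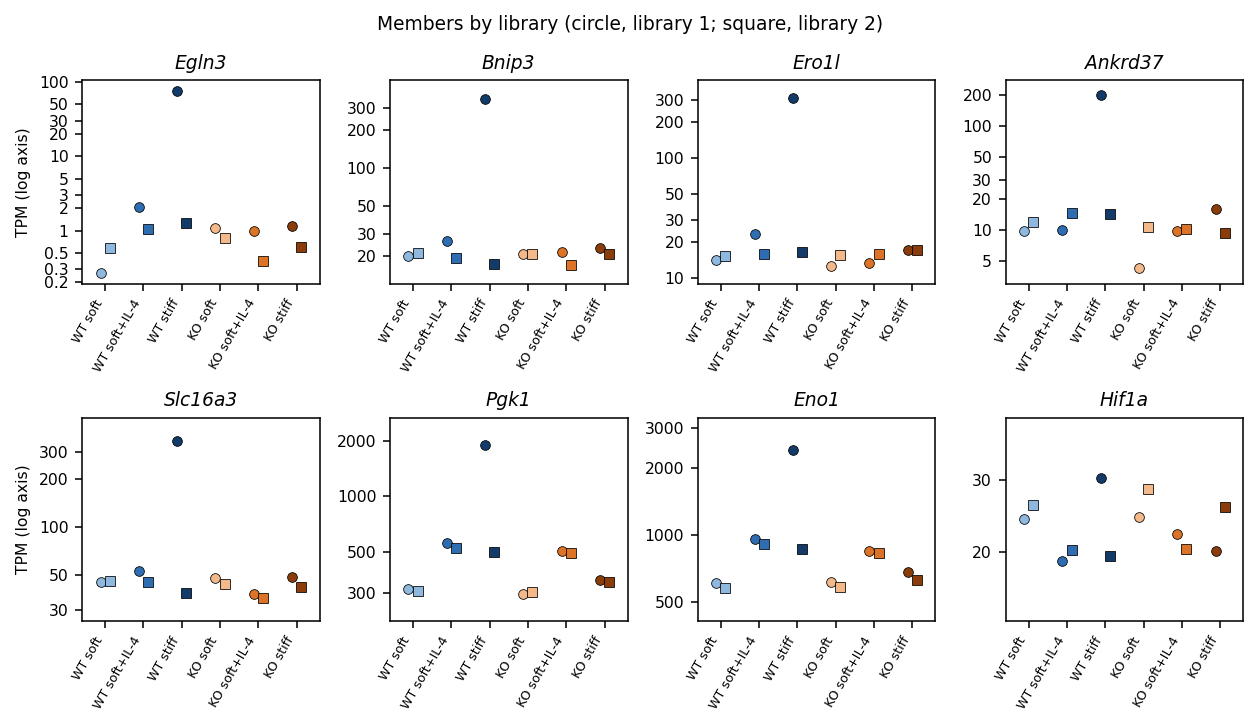
TPM of 8 members on log axes in the 6 groups, with a circle for library 1 and a square for library 2. For Egln3, Bnip3, Ero1l, Ankrd37, Slc16a3, Pgk1 and Eno1 the circle of WT stiff lies far above all other points, and for Hif1a (19.0 to 30.3 TPM) it lies just above them.

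Glucose enters through Slc2a1 and lactate leaves through Slc16a3. Slc2a1 read 224 TPM in WT stiff 1 and 30.0 to 51.6 TPM in the others, and Slc16a3 read 350.5 TPM against 35.8 to 53.1 TPM. Pdk1, which holds pyruvate out of the mitochondria by blocking pyruvate dehydrogenase, read 45.6 TPM against 10.3 to 17.6 TPM. Of the enzymes that set the level of fructose 2,6-bisphosphate, Pfkfb3 read 34.0 TPM against 12.1 to 21.0 TPM, and Pfkfb4 read 65.6 TPM against 37.7 to 51.9 TPM.

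Glycolytic enzymes were above all other libraries in WT stiff 1 for 15 of 16 genes, with a median difference of 1.39 log2 units from WT stiff 2. Following the pathway from glucose, Hk1 read 71.2 TPM in WT stiff 1 and 35.5 to 42.7 TPM elsewhere, Gpi1 read 977 against 240.2 to 309.7 TPM, and Pfkl read 106 against 16.4 to 24.8 TPM. Pfkm was closer (14.8 against 8.11 to 11.4 TPM). Aldoa read 3138 against 1585 to 2072 TPM, Aldoc 45.4 against 14.6 to 30.1 TPM, Tpi1 1146 against 277 to 358 TPM, and Gapdh 4889 against 1353 to 2043 TPM. At the end of the pathway, Pkm read 2251 against 1376 to 1636 TPM and Ldha, which turns pyruvate into lactate, read 1895 against 517 to 762 TPM. Eno2, the enolase of neurons, was the one enzyme that was lowest in WT stiff 1, with 6.36 TPM against 7.08 to 10.6 TPM. Summed over the 16 enzymes, glycolytic transcripts made up 2.04% of all TPM in WT stiff 1 and 0.885% in WT stiff 2. The share was 0.686% to 0.725% in the 4 soft libraries, 0.866% to 0.950% in the 4 with IL-4, and 0.775% and 0.715% in KO stiff.

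**Figure D3:**
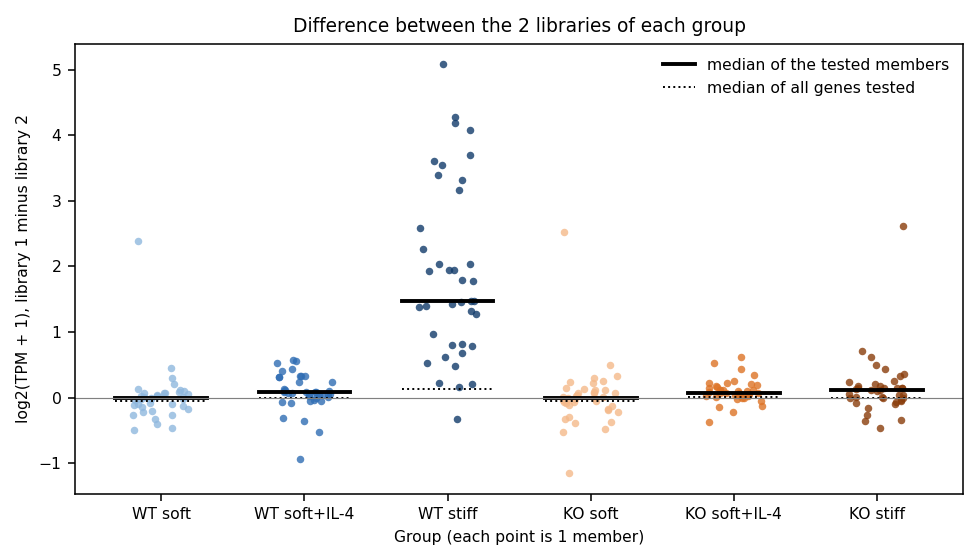
Each point is 1 of the 39 tested members and gives log2(TPM + 1) in library 1 minus library 2 of its group, with a solid line at the members' median and a dotted line at the median of all tested genes. The median was 1.48 in WT stiff and between −0.014 and 0.11 in the other 5 groups, and the lone high points seen in KO soft, KO stiff and WT soft are Car9.

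Markers of other cells also differed between the WT stiff libraries. The summed level of the neutrophil markers was 219 TPM in WT stiff 1 and 146 TPM in WT stiff 2, and 124 to 165 TPM in the other 10 libraries. It was carried by Csf3r, at 122 TPM in WT stiff 1 and 97.8 TPM in WT stiff 2, and Mmp8, at 71.1 and 30.2 TPM. Of the other markers that passed, S100a8 was at 12.7 and 9.76 TPM and S100a9 at 9.71 and 6.60 TPM, while Mpo, Elane and Ltf stayed at or under 1.57 TPM in every library. Dendritic cell markers, of which 4 of 7 passed, summed to 21.8 and 13.7 TPM in the WT stiff libraries and to 4.95 to 14.2 TPM in the others, mostly from Ccr7. Their part in the difference was not tested.

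IL-4 in the soft matrix changed 1 member beyond the threshold of an adjusted p under 0.05 and a log2 fold change of at least 1. This was Pfkp, the platelet-type phosphofructokinase, and it rose in both genotypes. Pfkp read 40.9 and 37.1 TPM in WT soft, 98.4 and 96.7 in WT soft+IL-4, 104 and 93.8 in WT stiff, 42.5 and 35.7 in KO soft, 97.9 and 86.9 in KO soft+IL-4, and 52.3 and 47.1 in KO stiff. The soft and IL-4 libraries did not overlap in either genotype. By limma with Benjamini-Hochberg adjustment over all tested genes, the log2 fold change of Pfkp with IL-4 was 1.30 in WT (SE 0.116, adjusted p = 0.000178) and 1.22 in KO (SE 0.116, adjusted p = 0.000258). That 1 member of 39 was called stands beside 3.76% of all genes called in WT and 3.65% in KO, so that the members were not called more often than other genes. The difference between the genotypes in the response to IL-4 reached the threshold for 0 of 39 members and 0% of all genes by limma, and 0 members had an unadjusted p under 0.05.

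Without regard to size, 20 of 39 members (51.3%) were higher in both WT soft+IL-4 libraries than in both WT soft libraries (26.2% of all genes), and 10 (25.6%) were lower (35.0% of all genes). In KO, 11 members (28.2%) were higher (24.7% of all genes) and 11 were lower (35.7% of all genes). The shared estimate of the spread includes the gap between the WT stiff libraries, and the median SE of a member's log2 fold change fell from 0.419 to 0.122 when WT stiff 1 was left out, an alternative chosen after the data were seen. All 39 members still passed the filter. On these 11 libraries, IL-4 raised 12 members in WT (30.8%, against 10.7% of all genes) and lowered 5 (12.8%, against 12.5%) at an adjusted p under 0.05. In KO it raised 9 (23.1%, against 9.61% of all genes) and lowered 5 (12.8%, against 12.8%). Beyond a log2 fold change of 1 there were 3 members in each genotype, Pfkp, Ndrg1 and Vegfa, beside 4.74% of all genes in WT and 4.72% in KO.

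The members that rose with IL-4 on these 11 libraries were mostly glycolytic enzymes, 9 of 16 in WT and 8 of 16 in KO. Pgk1, the first enzyme of glycolysis to yield ATP, read 316 and 305 TPM in WT soft, 559 and 527 in WT soft+IL-4, 1908 and 499 in WT stiff, 295 and 302 in KO soft, 505 and 492 in KO soft+IL-4, and 352 and 345 in KO stiff. Its log2 fold change with IL-4 was 0.80 in WT (SE 0.0544, limma adjusted p = 1.78e-05) and 0.74 in KO (adjusted p = 2.57e-05). The others raised in both genotypes were Hk2 (log2 fold change 0.72 in WT and 0.59 in KO), Eno1 (0.66 and 0.49), Pgam1 (0.60 and 0.39), Gapdh (0.52 and 0.40), Ldha (0.51 and 0.36), Aldoa (0.33 and 0.27) and the transporter Slc2a1 (0.58 and 0.38). Gpi1 (0.26), Bnip3l (0.28) and Hilpda (0.73) passed in WT, and whether they responded differently in KO was not shown, as no member passed the test of that difference. All of these rises other than that of Pfkp were under 2-fold.

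The same 5 members fell with IL-4 in both genotypes on the 11 libraries. They were Vegfa (log2 fold change −1.24 in WT and −1.13 in KO), Ndrg1 (−1.21 and −1.73), Aldoc (−0.77 and −0.83), Pfkfb3 (−0.54 and −0.68) and Pdk1 (−0.43 and −0.54). For Ndrg1 the adjusted p by limma was 0.000169 in WT and 1.89e-05 in KO, and for Vegfa it was 0.00597 and 0.00978. On all 12 libraries none of these 5 passed, with an adjusted p by limma of 0.393 for Ndrg1 and 0.384 for Vegfa in WT. The members thus did not move as 1 block with IL-4. The split did not wholly follow role, since the glycolytic enzyme Aldoc fell and Slc2a1 rose while Pfkfb3 and Pdk1 fell.

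**Figure D4:**
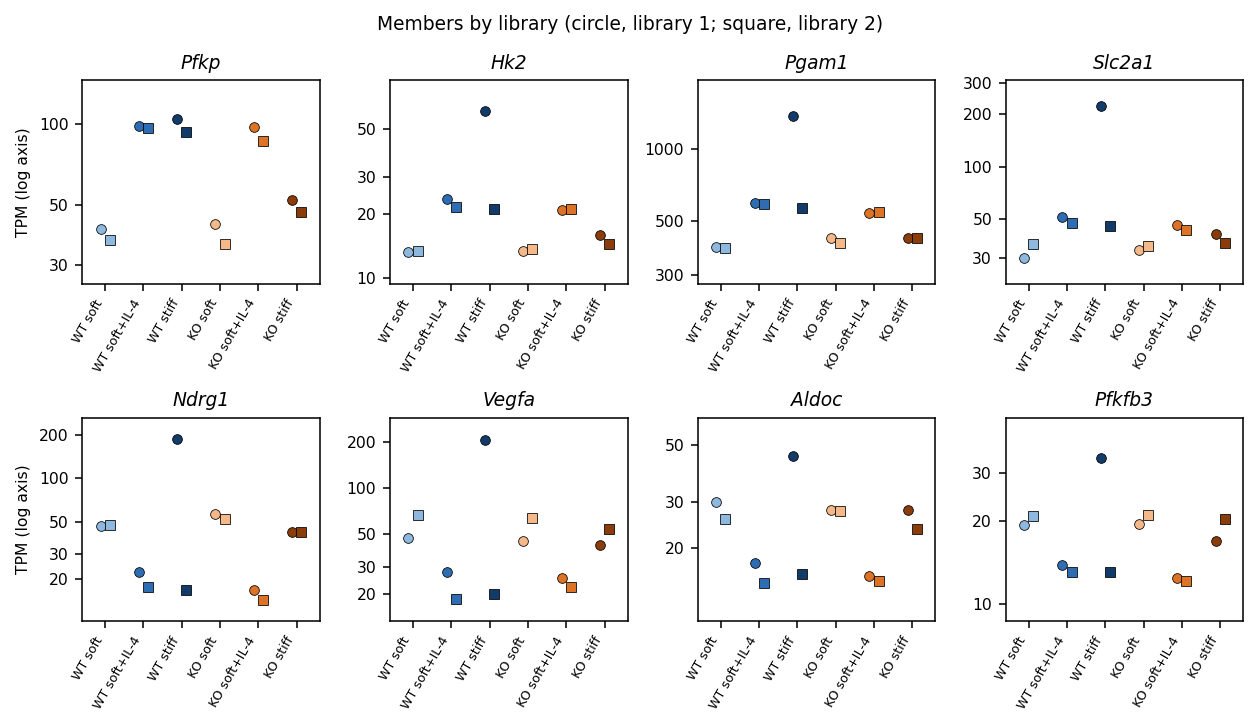
TPM of 8 members on log axes in the 6 groups, with a circle for library 1 and a square for library 2. Pfkp, Hk2, Pgam1 and Slc2a1 are higher with IL-4 than in soft matrix in both genotypes, Ndrg1, Vegfa, Aldoc and Pfkfb3 are lower, WT stiff 2 sits with the IL-4 libraries and KO stiff sits near KO soft.

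In WT stiff against WT soft, 5 members were higher and 0 lower beyond the threshold, all of them glycolytic enzymes, beside 3.97% of all genes called. The set was defined with WT stiff 1 known to be high for its hypoxia targets, so these values are a description and nothing is read from the count. The 5 were Pgk1, Hk2, Pfkp, Eno1 and Pgam1. Hk2, the inducible hexokinase, read 13.2 and 13.3 TPM in WT soft, 23.6 and 21.5 in WT soft+IL-4, 60.7 and 21.2 in WT stiff, 13.4 and 13.7 in KO soft, 20.8 and 21.2 in KO soft+IL-4, and 15.96 and 14.5 in KO stiff. Eno1, the main enolase, read 606 and 576 TPM in WT soft, 959 and 912 in WT soft+IL-4, 2389.6 and 860.1 in WT stiff, 618 and 582 in KO soft, 848 and 831 in KO soft+IL-4, and 680.1 and 629.7 in KO stiff. Pgam1, a phosphoglycerate mutase, read 393 and 387 TPM in WT soft, 595 and 589 in WT soft+IL-4, 1373 and 569 in WT stiff, 428 and 407 in KO soft, 544 and 547 in KO soft+IL-4, and 426 and 425 in KO stiff. Both WT stiff libraries exceeded both WT soft libraries for each of the 5, and the size of the difference depended on which stiff library was read. The log2 fold change was 1.65 for Pgk1 (SE 0.454), 1.38 for Hk2 (SE 0.355), 1.32 for Pfkp (SE 0.116), 1.28 for Eno1 (SE 0.351) and 1.18 for Pgam1 (SE 0.303). Across the set, 19 of 39 members (48.7%) were higher in both WT stiff than in both WT soft libraries (20.2% of all genes) and 0 were lower (22.7% of all genes). WT stiff 1 was above every other library for 37 of 39 members, so these counts hang on WT stiff 2 and nothing is read from them.

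With WT stiff 1 left out, 3 members passed in WT stiff against WT soft, Pfkp (log2 fold change 1.25), Ndrg1 (−1.43) and Vegfa (−1.43), beside 4.29% of all genes. On all 12 libraries Ndrg1 stood at 0.27 and Vegfa at 0.23, so that their direction turned with WT stiff 1. Pgk1 then stood at 0.68, Hk2 at 0.64, Eno1 at 0.54 and Pgam1 at 0.54, under 2-fold. Without the library labelled WT soft 2, whose Camkk2 was low, or without WT soft 1, 1 member passed, Pfkp, and likewise without all 3 libraries whose Camkk2 goes against the label. On the adjusted p alone, WT stiff 2 was above WT soft for 9 members (23.1%, against 6.49% of all genes) and below for 5 (12.8%, against 8.52%). These were Aldoa, Eno1, Gapdh, Hk2, Ldha, Pfkp, Pgam1, Pgk1 and Slc2a1 above, and Aldoc, Ndrg1, Pdk1, Pfkfb3 and Vegfa below. Since WT stiff 2 was closer to WT soft+IL-4 2 than any other pair of libraries, a response to stiffness and a response to IL-4 cannot be told apart in that library if its label is in doubt. Retnla, a gene that IL-4 is known to induce in macrophages, read 21525 TPM in WT stiff 1 and 7919 TPM in WT stiff 2. Its level was 7138 and 7096 TPM in the WT libraries with IL-4, and the KO stiff libraries held 2016 and 2092 TPM. The paper reports that stiffening raised Retnla by RT-qPCR and that stiffening and IL-4 had similar effects. A test with a lone library takes its spread from the other groups. Against WT soft+IL-4, WT stiff differed for 0 of 39 members and 0% of all genes by limma (2 members at an unadjusted p under 0.05). Its libraries were both higher for 1 member (15.4% of all genes) and both lower for 1 (13.8%), and with WT stiff 1 left out 0 members and 0% of genes passed the adjusted p.

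In KO the stiff matrix changed 0 of 39 members by limma, beside 0.0447% of all genes (1 member at an unadjusted p under 0.05), and 0 on the 11 libraries without WT stiff 1, beside 0.397% of all genes on the adjusted p. The KO stiff libraries were both higher than the KO soft ones for 11 members (28.2%, against 13.6% of all genes) and both lower for 2 (5.13%, against 18.7%). The KO soft 1 and KO stiff 1 labels carry the doubt named above. Pfkp, at 52.3 and 47.1 TPM in KO stiff, lay between the 42.5 and 35.7 TPM of KO soft and the 97.9 and 86.9 TPM of KO soft+IL-4. KO stiff against KO soft+IL-4 gave 0 members past both thresholds (1.61% of all genes) and 1 on the adjusted p alone (4.03% of all genes), which was Pfkp, with a log2 difference of −0.88 (SE 0.116, limma adjusted p = 0.00335). It did not pass without the 3 libraries whose Camkk2 goes against the label (−0.95, adjusted p = 0.0731) or without KO soft+IL-4 1 (−0.80, adjusted p = 0.0531). In that comparison 10 members did not overlap in the higher direction (33.0% of all genes) and 12 in the lower one (24.6%). Without WT stiff 1, 4 members were higher in KO stiff than in KO soft+IL-4 (10.3%, against 7.38% of all genes) and 7 were lower (17.9%, against 5.73%), and only Ndrg1 passed both thresholds (log2 difference 1.38, beside 2.51% of all genes). The 4 were Aldoc, Ndrg1, Pfkfb3 and Vegfa, and the 7 were Eno1, Gapdh, Hk2, Ldha, Pfkp, Pgam1 and Pgk1.

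Between genotypes, the soft matrix gave 0 members and 0% of genes by limma (0 members at an unadjusted p under 0.05), with 4 members higher in both KO libraries (14.6% of all genes) and 2 lower (10.1%). With IL-4 the test again gave 0 members and 0% of genes (0 members at an unadjusted p under 0.05), also without WT stiff 1. Even so, 22 of 39 members (56.4%) were lower in both KO soft+IL-4 libraries than in both WT soft+IL-4 libraries (18.1% of all genes), and 2 were higher (20.8% of all genes). The median of the members' log2 differences was −0.12. In the stiff matrix 0 members passed both thresholds (1.98% of all genes), and 16 had an unadjusted p under 0.05 (2034 of all 11194 genes). On the adjusted p alone 1 member passed (4.93% of all genes). It was Pfkp, lower in KO by 0.98 on the log2 scale (a difference of −0.98, SE 0.116, limma adjusted p = 0.00176). The adjusted p was 0.00359 without WT stiff 1, but 0.0642 without the 3 libraries whose Camkk2 goes against the label and 0.239 on only the groups compared, neither of which passed. There 17 members (43.6%) were lower in both KO stiff libraries (17.8% of all genes) and 0 were higher (21.3%). WT stiff 1, the library the set was defined with, was above every other library for 37 of 39 members. The counts against WT stiff are thus a description, and nothing is read from them.

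The response to stiffness differed between genotypes for 0 members past both thresholds (0.670% of all genes) and for 1 on the adjusted p alone (0.974% of all genes). For Pfkp the difference of the responses was −0.98 (SE 0.164, limma adjusted p = 0.0282), which did not pass without the 3 libraries whose Camkk2 goes against the label (−0.86, adjusted p = 0.823). Without WT stiff 1, KO stiff and WT stiff differed on the adjusted p for 10 members, 3 of them higher in KO (7.69%, against 4.87% of all genes) and 7 lower (17.9%, against 2.88%). The 3 were Aldoc, Ndrg1 and Vegfa, and the 7 were Eno1, Gapdh, Hk2, Ldha, Pfkp, Pgam1 and Pgk1. Ndrg1 (log2 difference 1.27) and Vegfa (1.22) passed both thresholds, beside 2.06% of all genes. The difference of the responses then stood at 1.07 for Ndrg1, −0.90 for Pfkp, −0.51 for Pgam1 and −0.46 for Pgk1. These members were picked by their adjusted p in that fit, and only the sizes are given. These fits leave WT stiff 2, the library nearest to WT soft+IL-4 2, alone in its group. They also hold the 3 libraries whose Camkk2 goes against the label, and no fit without both WT stiff 1 and these 3 is given. The genotype response to IL-4 gave 0 members and 0% of genes without WT stiff 1 as well, on the same soft libraries.

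Which isozyme carried a step also differed. Among the 3 phosphofructokinase genes, Pfkp made up 53.6% to 60.5% of the summed TPM in the 4 soft libraries and 74.5% to 77.5% in the 4 with IL-4. In WT stiff 2 its share was 79.0%, and in KO stiff it was 64.7% and 60.2%. In WT stiff 1 the share of Pfkp was 46.4%, and the liver-type Pfkl had the larger one, 47.0%, against 14.1% to 30.5% in the other libraries. Pfkp itself was not lower there (104 TPM). Among hexokinases, Hk2 made up 21.95% of the summed TPM of Hk1, Hk2 and Hk3 in WT stiff 1 and 4.55% to 6.13% elsewhere, while Hk3, the form abundant in myeloid cells, made up 52.3% there and 77.1% to 84.6% elsewhere. Aldoc was 1.58% to 1.79% of the aldolase TPM in the soft libraries, 0.719% to 0.834% with IL-4, 0.801% in WT stiff 2 and 1.43% in WT stiff 1. The 2 WT stiff libraries thus differed in which isozymes they held as well as in how much.

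**Figure D5:**
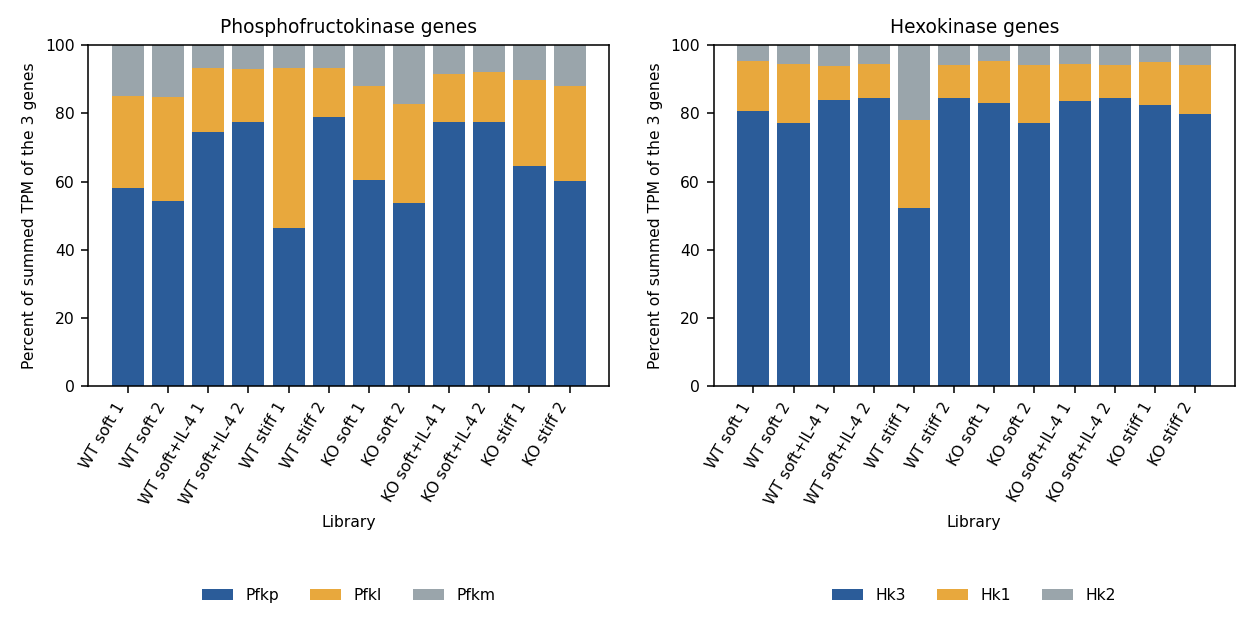
Stacked bars give the percent that each of 3 phosphofructokinase genes (left) and each of 3 hexokinase genes (right) made up of their summed TPM in each of the 12 libraries. Pfkp takes 74.5% to 77.5% in the libraries with IL-4 and 46.4% in WT stiff 1, where Hk2 takes 21.95% of the hexokinase TPM.

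Genes of the same pathways outside the set were read from 5 further lists. Of 17 tested further hypoxia targets, 13 were above all other libraries in WT stiff 1, 0 were below, and the median difference from WT stiff 2 was 1.23 log2 units. Of 15 tested isozymes and genes of pyruvate handling, 6 were above and 3 below (median 0.12), and of 5 HIF subunits and regulators 2 were above and 0 below (median 0.22). The pentose phosphate pathway, which branches off glycolysis to make NADPH, went the other way, with 0 of 7 above and 5 below (median −0.52). The citric acid cycle had 2 of 16 above and 4 below (median −0.36). Of all tested genes, WT stiff 1 was above the other libraries for 31.7% and below them for 17.4% (median 0.13). The lists were chosen with WT stiff 1 known to be high for hypoxia targets, so these counts are a description with no test.

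Under test, IL-4 raised the lactate transporter Slc16a1 in WT (log2 fold change 1.27, limma adjusted p = 0.00146), 1 of 15 genes of its list, with 0 lowered. Of all genes, 3.76% were called with IL-4 in WT and 3.65% in KO. Of the 17 further targets, IL-4 raised 1 in each genotype and lowered 0. This was Bhlhe40, a transcriptional repressor that is induced by many stimuli, with a log2 fold change of 2.23 in WT and 2.22 in KO. In WT stiff against WT soft 3 of 17 were higher, Bhlhe40 (2.37), Ak4 (2.71) and Nos2 (1.52), where 3.97% of all genes were called. The list was chosen with earlier results known, and WT stiff 1 was known to be high for hypoxia targets. Nothing is therefore read from this count. Ak4 read 24.5 and 3.36 TPM in the WT stiff libraries. Without WT stiff 1, Ak4 stood at 1.43 (limma adjusted p = 0.0036), and Nos2 did not pass (0.82, limma adjusted p = 0.107). Bhlhe40 read 199.5 and 156 TPM in WT stiff, 71.3 and 56.0 TPM in KO stiff and 29.0 to 37.9 TPM in the soft libraries. Its response to stiffness differed between genotypes (−1.43, limma adjusted p = 0.0301). That contrast holds the 3 libraries whose Camkk2 goes against the label, and a fit without them is not given here. The HIF subunits, the pentose phosphate pathway and the citric acid cycle had 0 genes called by limma in any comparison on all 12 libraries, with at most 1, 2 and 11 genes at an unadjusted p under 0.05. Without WT stiff 1, 11 of 16 citric acid cycle genes rose with IL-4 in WT and 0 fell, and in KO 12 rose and 1 fell, at an adjusted p under 0.05, against 10.7% and 9.61% of all genes that rose.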

How the data were processed

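Poly(A) RNA of BMDM was sequenced in 12 directional libraries, 2 for each of 6 groups, and groups were taken from the sample labels. The authors deposited 1 table of TPM values, fractional numbers that sum to 1000000 in every library, and 0 of its columns were left unused. Per the labels' processing notes, reads were handled with Trim Galore 0.6.7 and Salmon 1.4.0 on genome build mm10, while the study's methods describe alignment with STAR and counting with featureCounts, so which of these made the values is not settled. TPM keeps no read counts. Depth is therefore not known for any library, intervals for counting error could not be computed, and a gene listed at 0 is reported as that alone. Genes with near-identical copies or pseudogenes (Gapdh, Pgk1, Eno1, Ldha, Tpi1, Aldoa, Pgam1) may share reads with them.

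Values were tested as log2(TPM + 1), a scale on which changes of low genes are understated, for the 11194 genes that reached 1 TPM in 2 or more libraries. The 12 libraries were fitted together, with 1 mean for each group, in limma 3.58.1 (R 4.3.3, eBayes with a trend), and p-values were adjusted over all tested genes by the Benjamini-Hochberg method in each of 11 contrasts, which share control libraries. Calls required both an adjusted p under 0.05 and a log2 fold change of 1 or more in size. The design could not use an exact permutation test, since 2 libraries against 2 allow a two-sided p no lower than 0.333. The fit was tested on simulated data. Alternatives were the pseudocount, the filter, median-of-ratios scaling, fewer libraries, a replicate block, other fold thresholds and each library left out in turn.

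Every member is named. Values in all 12 libraries are given for the members called in any contrast and for the 10 members with the largest difference between the WT stiff libraries (Adm among them), together with Car9, which was added after its values were seen. The members and gene lists were chosen with earlier results of these data known. Promoter windows came from RefSeq (GRCm38.p6).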

Additional observations from a re-analysis of the deposited data

Results flagged for a closer look

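The response of Pfkp to the stiff matrix differed between genotypes. The log2 fold change of stiff against soft was 1.32 in WT and 0.34 in KO, a difference of −0.98 (SE 0.164, limma adjusted p = 0.0282). Both WT stiff libraries (104 and 93.8 TPM) were above both KO stiff libraries (52.3 and 47.1 TPM). Across the alternatives the adjusted p ranged from 0.00277 to 0.823. It was 0.0779 without WT soft 1, 0.129 without WT soft 2, 0.133 without KO soft 1, 0.0847 without KO stiff 1, 0.145 without KO stiff 2 and 0.163 on only the groups compared (limma adjusted p in each case), so that the difference did not pass in these fits. Camkk2 was at 37.7 TPM in KO stiff 1 and at 46.6 TPM in KO soft 1, against their labels. Without these libraries and WT soft 2 the difference stood at −0.86 and did not pass. That fit left WT soft, KO soft and KO stiff with a single library each, and the part of the labels was not tested further.

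Tpi1, the triose phosphate isomerase, went opposite ways with IL-4 in the 2 genotypes. It read 309.5 and 287 TPM in WT soft and 358 and 334 TPM in WT soft+IL-4, but 305 and 298 TPM in KO soft and 294 and 284 TPM in KO soft+IL-4. Of these libraries, WT soft 2 and KO soft 1 had Camkk2 against their labels. The difference of the responses was −0.27 on the log2 scale (SE 0.604, limma adjusted p = 1), so that the test of the difference itself did not pass.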

How the results depend on the processing

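The counts that involve WT stiff depended on its libraries. Left out in turn, single libraries gave 1 to 27 members called in WT stiff against WT soft (5 on all libraries; 27 without WT stiff 2, 3 without WT stiff 1, 1 without either WT soft library), 0 to 27 in WT stiff against WT soft+IL-4, 0 to 26 in KO stiff against WT stiff and 0 to 26 in the difference of the responses to stiffness, the highest always without WT stiff 2, which leaves WT stiff 1, the library the set was defined with, alone in its group. A library left alone in its group is assumed to vary like the others. The share of all genes called without WT stiff 2 is not given here, so the counts from those fits are not a result about the members. Fitting only the groups compared gave 0 members in WT stiff against WT soft, 3 with IL-4 in WT, 3 with IL-4 in KO, 1 in KO stiff against KO soft+IL-4 and 1 in KO against WT with IL-4. Without the 3 libraries whose Camkk2 goes against the label, WT stiff against WT soft gave 1, as it did with no filter on low values. A threshold of 2 log2 units gave 0 for IL-4 in each genotype and 0 for stiffness in WT. With no fold threshold, 1 member passed in KO stiff against KO soft+IL-4, 1 in KO stiff against WT stiff and 1 in the difference of the responses to stiffness. Without WT stiff 1, chosen after seeing the data, IL-4 gave 3 members in WT and 3 in KO, and KO stiff against KO soft+IL-4 gave 1. With no fold threshold as well, the counts were 17, 14 and 11, and 14 in WT stiff against WT soft, 10 in KO stiff against WT stiff and 4 in the difference of the responses to stiffness. The median difference between the WT stiff libraries was 1.33 under median-of-ratios scaling, which moved WT stiff 1 by 0.15 log2 units relative to WT stiff 2. The cause of these changes was not tested. The replicate numbers pair nothing in the labels: deviations of same-numbered libraries correlated over 15 pairs of groups at −0.053 to 0.314 (3 over 0.1). These 3 were the pairs among WT soft, KO soft and KO stiff (0.283 to 0.314), the groups with Camkk2 high in library 1 and low in library 2. The reason was not tested. The replicate block changed no count, with 5 members in WT stiff against WT soft and 1 for IL-4 in each genotype. Pfkp kept its call with IL-4 in each genotype under all alternatives run but the threshold of 2 log2 units. The direction of each call on all 12 libraries held in every alternative run for it. Among members not called, leaving out WT stiff 1 turned the sign of 15 of 39 in WT stiff against WT soft (Ndrg1 from 0.27 to −1.43, Vegfa from 0.23 to −1.43, Bnip3 from 1.90 to −0.24), 33 in WT stiff against WT soft+IL-4 (median from 0.74 to −0.096), 18 in KO stiff against WT stiff and 19 in the difference of the responses to stiffness. The TPM values carry no read counts, so what depth limits for low members such as Egln3, P4ha2 and Ddit4 is unknown.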

Other observations

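Some further values belong to no comparison above. Several further hypoxia targets that were not called on the 12 libraries were high in WT stiff 1 alone. Glycogen synthase Gys1 read 47.6 TPM there and 8.39 TPM in WT stiff 2, the branching enzyme Gbe1 read 15.7 and 6.10 TPM, the phosphoglucomutase Pgm2 read 97.9 and 22.7 TPM, and the cytokine Mif read 1661 and 419.8 TPM. Enzymes of the pentose phosphate pathway were lower in that library, with 76.1 TPM of G6pdx, which makes the first NADPH of the pathway, against 185 TPM in WT stiff 2, and 192 TPM of the transketolase Tkt against 376 TPM. These genes were picked after their values were seen and the differences between these libraries were not tested.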
